A study of Homo sapiens with 6 samples.

Results

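The genes described here are 55 interferon-stimulated and nucleic acid sensing genes of human cells, chosen by name for their known place in the interferon response and matched by symbol to the Ensembl identifiers of the deposited count table. All 55 were found among the 62754 genes of that table. Of these, 51 had enough counts to be tested among 20992 tested genes, and the other 4 (MX2, OAS1, OAS2 and XAF1) were near 0 in every library. RNA was measured by poly(A)-selected RNA-seq in 3 control libraries and 3 FAM60A-knockout libraries of HEK293, a cell line that grows attached and was made from the kidney of a human embryo, while the labels also mention its derivative HEK293T. FAM60A, whose current symbol is SINHCAF, encodes a subunit of the Sin3/HDAC complex, which removes acetyl groups from histones and represses transcription. Cells with the knockout were selected with puromycin as a pool, not a single clone, and had been transfected with a CRISPR/Cas9 vector carrying several guide RNAs against FAM60A. Both groups were grown in DMEM with fetal bovine serum, and whether the control cells received a vector or puromycin is not given in the sources used here. The libraries of each group were numbered replicates, and since nothing says that they came from separate cultures, p-values measure only the spread between these libraries, which may be technical.

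Cells detect foreign or misplaced nucleic acid with sensors such as TLR3 in endosomes, RIG-I and MDA5 in the cytoplasm and cGAS, which binds DNA, and these act through the adaptors MAVS and STING on IRF3 and IRF7 to switch on interferon genes. Secreted interferon binds its receptors, the kinases JAK1 and TYK2 phosphorylate STAT proteins, and a complex that includes STAT2 and IRF9 binds interferon-stimulated response elements in promoters. The genes that follow encode antiviral effectors, such as the IFIT proteins that bind viral RNA, the IFITM proteins that hinder viral entry, the OAS enzymes that respond to double-stranded RNA, and the ubiquitin-like modifier ISG15.

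Total counts lay between 88361827 and 93346824 per library, and edgeR's TMM factors between 1.03 and 1.05 in control and between 0.953 and 0.973 in knockout libraries. Values below are listed in the order of replicates 1, 2 and 3. SINHCAF had 11028, 10165 and 12792 counts in control libraries against 5684, 5793 and 5449 in knockout libraries, without overlap (log2 fold change -0.85, SE 0.11, edgeR adjusted p = 0.00863). The two-sided exact permutation test gave p = 0.1 for SINHCAF, the smallest value that 3 against 3 libraries allow. Control replicate 3 stood apart from the other controls and was at least 2-fold from their mean in 24.3% of all genes tested, so its value is given separately throughout. Of the HEK293 markers, NEFL and LIN28B were high in every library, while NEFM (81 to 192 counts, lower in knockout) and PAX2 (144 to 577 counts) were low. Markers of leukocytes (PTPRC, LYZ, CD68, CD3E) and the endothelial marker CDH5 had at most 21 counts, and PECAM1 was not matched. Of 3 fibroblast markers, COL1A2 had at most 2 counts, DCN had 0, 1 and 1 counts in control and 30, 33 and 33 in knockout libraries, and LUM had 244, 223 and 47 against 789, 642 and 727. DCN and LUM passed the test as higher in knockout, and their part in the results was not tested. In such bulk libraries, fewer cells that express a gene and less RNA per cell cannot be told apart.

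The promoter letters of some members are shown first, since many of these genes share the element through which interferon acts. RefSeq start-site windows of GRCh38.p14, reaching 250 bases before and 50 after each start, were matched by symbol for 41 of the 55 members. The element was searched as GAAANNGAAA on both strands, which reads TTTCNNTTTC in reverse, and overlapping matches were counted separately. It was found in 24 of the 41 members (58.5%), against 1195 of 27305 genes with a window (4.38%) and 3.57% of all windows. Since the members were chosen for their known place in the interferon response, this excess follows from the choice and is no separate finding. Below, the capitals mark these letters, each sequence runs 5′ to 3′ on the strand of its gene, and the first 5 belong to all the members called higher in knockout that had a window.
IFIT5: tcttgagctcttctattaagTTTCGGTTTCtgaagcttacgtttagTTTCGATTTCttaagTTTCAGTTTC
IFI44: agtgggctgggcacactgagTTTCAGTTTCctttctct
IFI44L: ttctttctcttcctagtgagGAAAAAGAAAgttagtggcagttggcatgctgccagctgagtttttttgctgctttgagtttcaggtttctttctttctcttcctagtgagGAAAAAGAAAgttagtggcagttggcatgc
TLR3: cattttttttcaagctttacTTTCACTTTC
GBP1: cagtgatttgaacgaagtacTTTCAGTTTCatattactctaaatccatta
IFITM3: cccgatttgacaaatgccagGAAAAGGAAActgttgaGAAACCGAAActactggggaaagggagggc
ISG15: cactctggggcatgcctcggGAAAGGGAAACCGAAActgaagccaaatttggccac
BST2: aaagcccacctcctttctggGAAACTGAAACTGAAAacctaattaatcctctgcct
IFITM1: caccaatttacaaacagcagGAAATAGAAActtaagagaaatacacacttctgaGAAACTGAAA
PARP14: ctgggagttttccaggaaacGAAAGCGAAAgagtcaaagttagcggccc

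IFIT5 was read from chr10:89414503-89414573, IFI44 from chr1:78649751-78649788, IFI44L from chr1:78620264-78620404 and TLR3 from chr4:186069132-186069161, all on the plus strand, and GBP1 from chr1:89065306-89065355 on the minus strand. IFITM3 and ISG15, both called lower in knockout, were read from chr11:320866-320932 on the minus strand and chr1:1013364-1013419 on the plus strand. BST2, IFITM1 and PARP14 are shown as examples in which control replicate 3 lay far from the other controls. They were read from chr19:17405725-17405780 on the minus strand, chr11:313980-314043 on the plus strand and chr3:122680790-122680838 on the plus strand. IFIH1, in which control replicate 3 also lay far from the other controls, held 3 matches and is not shown. Each stretch lies before or across the annotated start of its gene, so that at most the first 6 transcribed bases are included. The element occurred 3 times in IFIT5, and its pair of matches in ISG15 and in BST2 overlapped. Of the 9 members called higher, IFIT2, OASL, IRF2 and GBP2 had no window, and of the 5 called lower IFITM2 had none. TYK2 and IFNGR2, called lower, had a window without the letters. Given a window, the letters were present in 5 of 5 members called higher and 2 of 4 called lower. The letters were also present in 17 of 30 members with a window that were tested but not called. They were present in 0 of 3 receptors and 0 of 5 signalling kinases and transcription factors with a window, against 5 of 5 of the IFIT and IFITM family. With all libraries, the median log2 fold change was 0.40 over tested members with the letters. It was 0.01 over tested members with a window that lacked them, and this difference was not tested. All receptors, kinases and transcription factors with a window lacked the letters, so letters and role cannot be told apart in it. The palindromic letters TTCNNNGAA, searched as a second motif of interferon signalling, were found in 11 of 41 members (26.8%) and 9.38% of all genes. Here too the members had been chosen for their place in the response, and a match describes these letters in this window only.

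**Figure D1:**
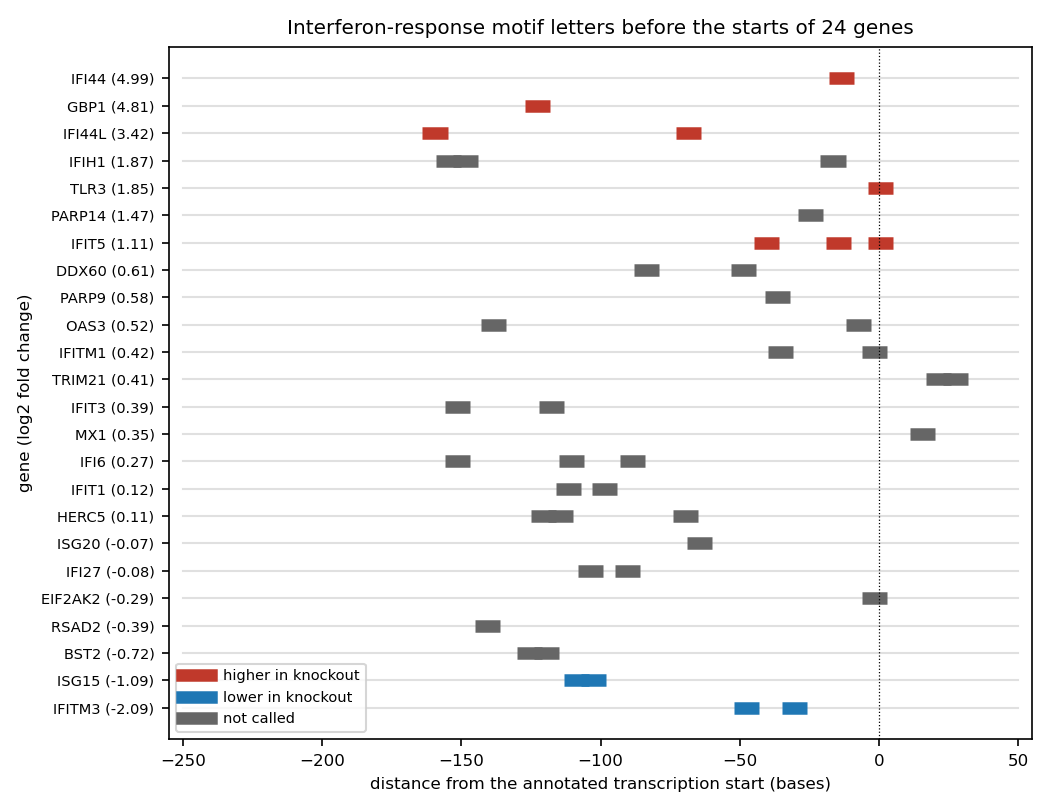
Positions of the response element letters in RefSeq start-site windows of the 24 members that hold them. The x axis gives the distance from the annotated transcription start in bases, the y axis the genes ordered by log2 fold change (in parentheses), and each block is 1 match, red for members called higher, blue for called lower and grey for not called. For genes with several windows only the first is drawn, and among the matches drawn the positions ran from 164 bases before the start in IFI44L to 32 bases after it in TRIM21.

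In FAM60A-knockout cells a minority of these genes changed, in both directions. By edgeR's quasi-likelihood test at an adjusted p of at most 0.05 (Benjamini-Hochberg over all genes tested), 14 of 51 members were called, beside 16.6% of all genes. Of these, 9 rose (7.96% of all genes) and 5 fell (8.67% of all genes), and 10 of the 14 also passed 2-fold, 8 of them higher and 2 lower (7.06% of all genes). The risers were GBP1, IFI44, IFI44L, TLR3, OASL, GBP2, IFIT2, IFIT5 and IRF2, and those that fell were IFITM3, ISG15, IFITM2, TYK2 and IFNGR2. Control and knockout libraries did not overlap in 27 of 51 members, beside 41.6% of all genes. The median log2 fold change, knockout minus control, was 0.27 over the members and -0.01 over all genes tested, with 33 members fitted above 0 and 18 below. Scaling by library size without TMM shifted the median of all genes to -0.12 and that of the members to 0.16. Without control replicate 3, edgeR called 37 of 51 members (24 higher, 13 lower), beside 65.6% of all genes, and 16 with a 2-fold change, beside 22.9% of all genes. All 14 were among the 37, and the median over members was 0.22 in that fit.

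**Figure D2:**
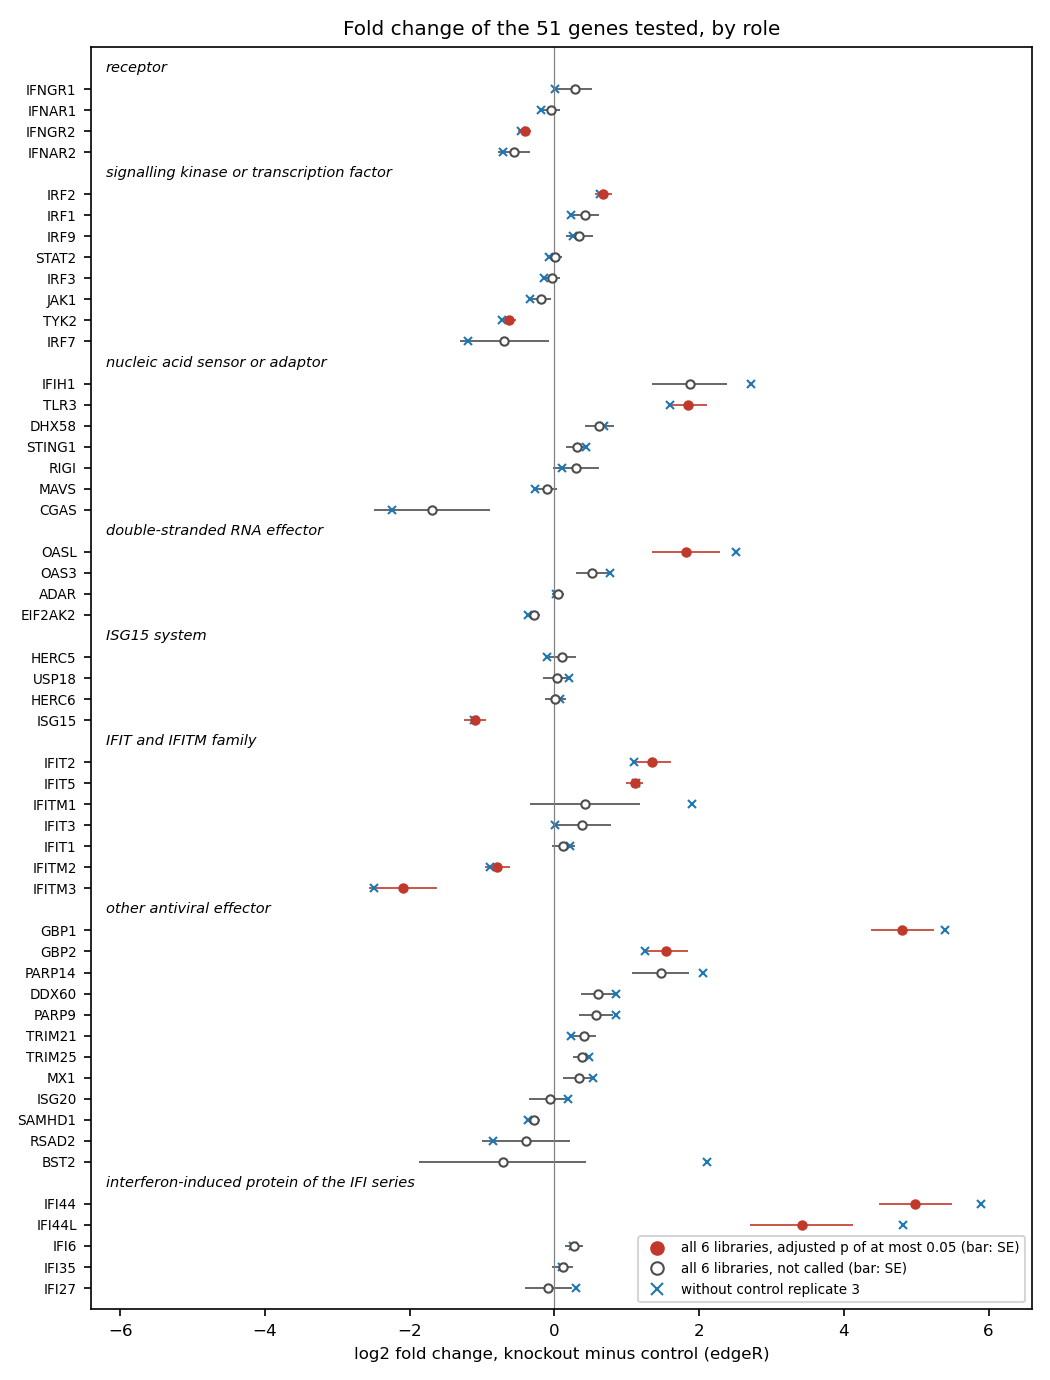
Fold change of the 51 tested members grouped by role. The x axis gives the log2 fold change of knockout against control, with circles for edgeR's estimate over all 6 libraries. Circles are filled red where the adjusted p was at most 0.05, bars give the SE derived from the F statistic, and crosses are the estimate without control replicate 3. Most circles lie within 1 log2 unit of 0, while IFI44 at 4.99 and GBP1 at 4.81 lie farthest to the right and IFITM3 at -2.09 farthest to the left.

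Among the receptors, 1 of 4 fell and 0 rose. Counts by role, here and below, stand beside 7.96% of all genes called higher and 8.67% called lower. With 4 to 12 tested genes in a role, they are too few to set a role apart from these shares. IFNGR2, the signal-transducing chain of the interferon-gamma receptor, had 4959, 5298 and 4957 counts in control and 3483, 3354 and 3431 in knockout libraries. Every knockout library was below every control library, control replicate 3 included, and the log2 fold change was -0.41 (SE 0.09, edgeR adjusted p = 0.0277). Ranges of adjusted p given here and below are those over the alternative settings, 1.94e-05 to 0.141 for IFNGR2 (edgeR, DESeq2 or limma). Its exons overlap those of TMEM50B on the opposite strand by 380 bases, and whether reads were counted by strand is not given in the sources used here. IFNGR1, which binds interferon-gamma, was the receptor with the highest level per length, 38.1 CPM (counts divided by the normalized library size) per kb of its canonical transcript as the mean of 6 libraries. It had 8220, 8063 and 4423 counts in control and 7825, 7002 and 7709 in knockout libraries, so that only control replicate 3 was low (log2 fold change 0.28). IFNAR1 and IFNAR2, the chains of the receptor for type I interferon, had log2 fold changes of -0.05 and -0.56 and were not called. Both were called lower without control replicate 3, at -0.19 and -0.71. Exons of IFNAR2 share 2038 bases with the annotated gene IFNAR2-IL10RB on the same strand, and how shared reads were assigned is not given.

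Of 8 signalling kinases and transcription factors, 1 rose and 1 fell. TYK2, the kinase bound to IFNAR1, had 10626, 10801 and 9169 counts in control and 5644, 6034 and 6166 in knockout libraries. The groups did not overlap, and the log2 fold change was -0.62 (SE 0.10, edgeR adjusted p = 0.0124, range 1.71e-08 to 0.0903). IRF2, which competes with IRF1 for the same promoter elements, had 982, 940 and 917 counts against 1277, 1463 and 1339. All knockout libraries were higher, with a log2 fold change of 0.68 (SE 0.12, edgeR adjusted p = 0.0171, range 1.73e-07 to 0.102). IRF7, a factor that itself rises in an interferon response, had 1095, 1271 and 200 counts in control and 447, 514 and 468 in knockout libraries. The knockout libraries were thus below control replicates 1 and 2 and above control replicate 3, and IRF7 was not called (log2 fold change -0.69, SE 0.61). It was called lower at -1.19 when control replicate 3 was left out. IRF3, which the sensors activate directly, had the highest level per length of this group outside the named changes, at 36.2 CPM per kb, with 5571, 6323 and 5059 counts against 4752, 5232 and 4871. JAK1, IRF1 and IRF9 were not called, with log2 fold changes of -0.18, 0.42 and 0.35, and STAT2 stood at 0.00, on the other side of 0 without TMM, with DESeq2 and with limma-voom. Exons of IRF9 share 1544 bases with another annotated gene on the same strand, which had a mean of 95.8 counts, so its counts are uncertain.

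Of 7 nucleic acid sensors and adaptors, 1 rose and 0 fell. TLR3, the endosomal receptor for double-stranded RNA, had 103, 88 and 55 counts in control and 263, 248 and 283 in knockout libraries. Control replicate 3 was the lowest of all libraries, and the groups did not overlap (log2 fold change 1.85, SE 0.27, edgeR adjusted p = 0.0105, range 5.75e-09 to 0.0761). IFIH1, which encodes the long double-stranded RNA sensor MDA5, had 242, 228 and 824 counts against 1321, 1459 and 1465. The groups did not overlap, but control replicate 3 lay between the other controls and the knockout libraries, and the log2 fold change of 1.87 (SE 0.52) missed the threshold in edgeR (adjusted p = 0.0570, range 2.11e-15 to 0.171). IFIH1 was called by DESeq2, by limma-voom, by edgeR without a filter and, at 2.71, by edgeR without control replicate 3. CGAS, the DNA sensor that produces cyclic GMP-AMP, had 89, 87 and 8 counts in control libraries against 13, 20 and 18 in knockout libraries. Control replicate 3 was below every knockout library, and CGAS was not called (log2 fold change -1.69, SE 0.80). When that library was left out, CGAS was called lower at -2.24. STING1, the adaptor that receives the cyclic GMP-AMP signal, was the highest of the remaining sensors and adaptors at 13.1 CPM per kb, with 2091, 2305 and 2967 counts against 2588, 2922 and 2703. RIGI, which encodes the sensor of short double-stranded RNA, had between 15 and 26 counts in every library, and RIGI, the related DHX58 and the adaptor MAVS were not called at log2 fold changes of 0.29, 0.62 and -0.11. Exons of RIGI share 4471 bases with another annotated gene on the same strand, against a canonical transcript of 4628 bases. How shared reads were assigned is not given in the sources used here, so the level of RIGI is uncertain.

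Of the 4 tested effectors that act on double-stranded RNA, 1 rose. OASL, an OAS-like protein without synthetase activity that enhances RIG-I signalling, had 10, 11 and 31 counts in control and 44, 62 and 60 in knockout libraries. The groups did not overlap, although control replicate 3 lay closer to the knockout libraries than the other controls did (log2 fold change 1.82, SE 0.47, edgeR adjusted p = 0.0453, range 4.41e-07 to 0.160). The synthetases OAS1 and OAS2 were not tested, with 2 to 10 counts and 0 to 2 counts per library. A count of 3 or less was taken as the floor, which covers counting error only, and OAS2 and XAF1 were at or under it in every library. OAS3, EIF2AK2, which encodes the kinase PKR, and ADAR, the editing enzyme that converts adenosine to inosine in double-stranded RNA, were not called. Their log2 fold changes were 0.52, -0.29 and 0.05, and ADAR was on the other side of 0 without TMM and with limma-voom. At 41.1 CPM per kb, ADAR had the highest level per length of all members, with 26539, 24787 and 25908 counts against 21996, 25247 and 24769.

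In the ISG15 system, the modifier fell while its enzymes were not called. ISG15, which is conjugated to proteins and also secreted, had 747, 806 and 794 counts in control and 294, 338 and 356 in knockout libraries. Control replicate 3 lay with the other controls, and every knockout library was lower (log2 fold change -1.09, SE 0.15, edgeR adjusted p = 0.00949, range 1.20e-14 to 0.0799). HERC5, the main ligase for ISG15 in human cells, had 4064, 3919 and 2585 counts against 3478, 3491 and 3270 and the highest level per length of the 3 enzymes and relatives, 10.8 CPM per kb. Its log2 fold change was 0.11 with all libraries and -0.10 without control replicate 3. HERC6 and USP18, the protease that removes ISG15, stood at 0.01 and 0.04, both on the other side of 0 without TMM and with limma-voom.

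In the IFIT and IFITM family, 2 of 7 members rose, both IFIT genes, and 2 fell, both IFITM genes. IFIT5, which binds RNA with a 5′ phosphate, had 4001, 3592 and 4151 counts in control and 8267, 7000 and 7412 in knockout libraries. Control replicate 3 lay with the other controls, the groups did not overlap, and the log2 fold change was 1.11 (SE 0.11, edgeR adjusted p = 0.00540, range 9.35e-14 to 0.0470). The level of IFIT5 per length was 9.75 CPM per kb in control replicates 1 and 2 and 21.7 in knockout libraries. IFIT2, which acts with IFIT1 and IFIT3, had 106, 104 and 59 counts against 202, 212 and 203. Again the groups did not overlap, with control replicate 3 the lowest (log2 fold change 1.35, SE 0.26, edgeR adjusted p = 0.0225, range 1.18e-06 to 0.111). IFIT2 shares 65 exonic bases with LIPA, a gene on the opposite strand with a mean of 11761 counts. IFIT1 and IFIT3 were not called, at log2 fold changes of 0.12 and 0.39. Without control replicate 3, IFIT1 was called higher at 0.22 and IFIT3 stood at 0.00. IFIT1, the better expressed of the pair per length at 1.77 CPM per kb, had 651, 635 and 822 counts against 680, 708 and 672.

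IFITM3, which blocks the entry of viruses from endosomes, had 778, 959 and 271 counts in control and 117, 173 and 133 in knockout libraries. Control replicate 3 lay between the other controls and the knockout libraries, and the groups did not overlap (log2 fold change -2.09, SE 0.47, edgeR adjusted p = 0.0328, range 9.01e-13 to 0.151). IFITM2, its close relative, had 1112, 1298 and 1022 counts against 564, 695 and 528, again without overlap (log2 fold change -0.79, SE 0.18, edgeR adjusted p = 0.0320, range 3.16e-07 to 0.152). The control libraries of IFITM1, which acts at the cell surface, were 113, 77 and 621 counts, and its knockout libraries 334, 293 and 348. The groups overlapped because control replicate 3 was the highest of all libraries, and IFITM1 was not called (log2 fold change 0.42, SE 0.76). In the fit without it, IFITM1 was called higher at 1.90. IFITM1, IFITM2 and IFITM3 are related neighbours on chromosome 11, and how reads were divided among these 3 genes is uncertain.

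Of the 12 other antiviral effectors tested, 2 rose, both of them guanylate-binding proteins, GTPases that interferon-gamma induces strongly and that attack intracellular microbes. GBP1 had 7, 9 and 21 counts in control and 323, 331 and 287 in knockout libraries. The lowest knockout library was far above control replicate 3, the highest of the controls (log2 fold change 4.81, SE 0.44, edgeR adjusted p = 0.00370, range 5.75e-33 to 0.0437). GBP2 had 37, 41 and 20 counts against 89, 83 and 85. Here control replicate 3 was the lowest library, and the groups did not overlap (log2 fold change 1.54, SE 0.30, edgeR adjusted p = 0.0224, range 2.14e-05 to 0.114). PARP14, a mono-ADP-ribosyltransferase, had 1026, 868 and 2453 counts against 3487, 3510 and 3819. All knockout libraries were higher, but control replicate 3 lay between, and the log2 fold change of 1.47 (SE 0.39) missed the threshold in edgeR (adjusted p = 0.0509, range 2.69e-14 to 0.166). PARP14 was called by DESeq2, by limma-voom, by edgeR without a filter and, at 2.05, by edgeR without control replicate 3.

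BST2, also called tetherin, which holds budding virus particles at the cell surface, had 34, 58 and 907 counts in control libraries against 171, 200 and 175 in knockout libraries. It was thus highest in a control library, and the log2 fold change of -0.72 (SE 1.15) over all libraries became 2.10 without control replicate 3, where BST2 was called higher. TRIM25, a ubiquitin ligase of the RIG-I pathway, had the highest level per length of the remaining effectors, 12.1 CPM per kb, and 5645, 5016 and 6820 counts against 6472, 6879 and 7153. MX1, ISG20, SAMHD1, TRIM21, TRIM25, PARP9, DDX60 and RSAD2 were not called, with log2 fold changes between -0.39 for RSAD2, which encodes viperin, and 0.61 for the helicase DDX60. MX2 was not tested, with 1 to 10 counts per library, nor was XAF1, with 0 or 1.

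Of the 5 interferon-induced proteins of the IFI series, 2 rose, the neighbours IFI44 and IFI44L. IFI44, an interferon-induced GTP-binding protein with antiviral activity, had 2, 1 and 6 counts in control and 99, 80 and 88 in knockout libraries. The groups did not overlap (log2 fold change 4.99, SE 0.51, edgeR adjusted p = 0.00493, range 1.43e-14 to 0.0481). Control replicates 1 and 2 were at or under 3 counts for IFI44, and against that floor per library the knockout level of 1.03 CPM was at least 33.1-fold higher. Its paralog IFI44L had 6, 6 and 37 counts against 154, 144 and 176. Control replicate 3 was the highest control, still below every knockout library (log2 fold change 3.42, SE 0.71, edgeR adjusted p = 0.0265, range 2.45e-12 to 0.115). IFI6, which localizes to mitochondria and the endoplasmic reticulum, had the highest level per length of the others, 16.9 CPM per kb, with 1106, 1269 and 1222 counts against 1274, 1373 and 1247. IFI6, IFI35 and IFI27 were not called, at log2 fold changes of 0.27, 0.12 and -0.08.

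**Figure D3:**
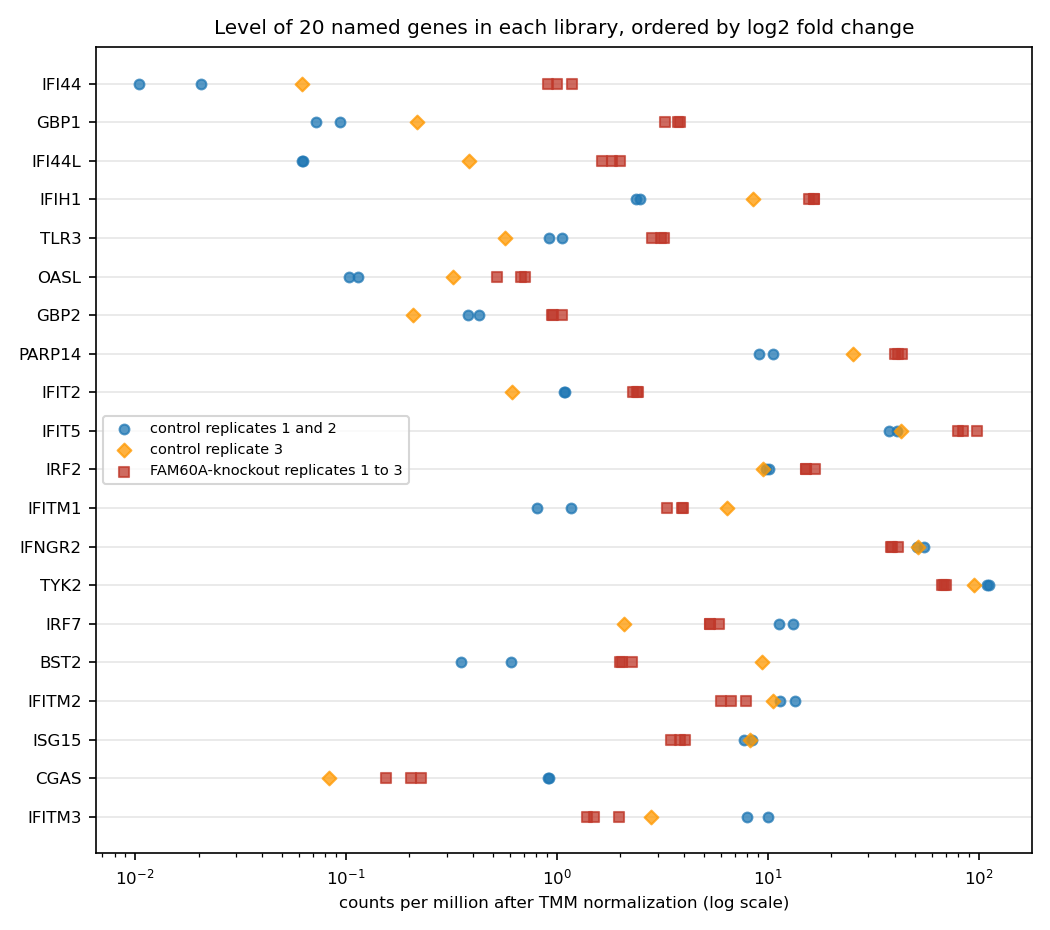
Level of the 20 members whose counts were given in full under the rule for named genes, in each library. The x axis gives CPM (counts divided by the normalized library size) after TMM normalization on a log scale and the y axis the genes ordered by log2 fold change; circles are control replicates 1 and 2, diamonds control replicate 3 and squares the 3 knockout libraries. The knockout squares lie close together in each gene, while the diamond is at least 2-fold from the mean of the circles in 11 of the 20 and passes the squares in BST2, IFITM1, CGAS and IRF7.

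The 31 tested members outside these 20 had log2 fold changes between -0.56 and 0.62 and a lowest edgeR adjusted p of 0.0710. Of these 31, 11 had no overlap between the groups, beside 41.6% of all genes. Without control replicate 3, edgeR called 17 of the 31, beside 65.6% of all genes, with all 31 between -0.85 and 0.86. Of all members, 36 had at least 100 counts in every library, and the 3 with the largest rises, IFI44, GBP1 and IFI44L, had at most 37 counts in any control library. These 3 passed the filter only through the knockout libraries, where they were high.

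Control replicate 3 was at least 2-fold from the mean of control replicates 1 and 2 in 14 of 51 members, which is set beside the 24.3% of all genes given above. In 7 of the 14 it lay between those controls and the mean of the knockout libraries, namely IFITM3, OASL, IFI44, IFI44L, IFIH1, PARP14 and GBP1. It lay beyond the knockout libraries on the same side in 6, with log2 ratios to control replicates 1 and 2 of 4.30 for BST2, 2.71 for IFITM1, 1.01 for IFI27, -2.20 for RSAD2, -2.56 for IRF7 and -3.46 for CGAS. In IFIT3 it lay at -1.50, where the mean of the knockout libraries was at 0.04. With control replicates 1 and 2 as the sole reference, the knockout libraries lay outside their range in 40 of the 51 tested members, beside 75.5% of all genes tested. In the 9 called members not listed here, control replicate 3 was within 2-fold of the other controls.

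**Figure D4:**
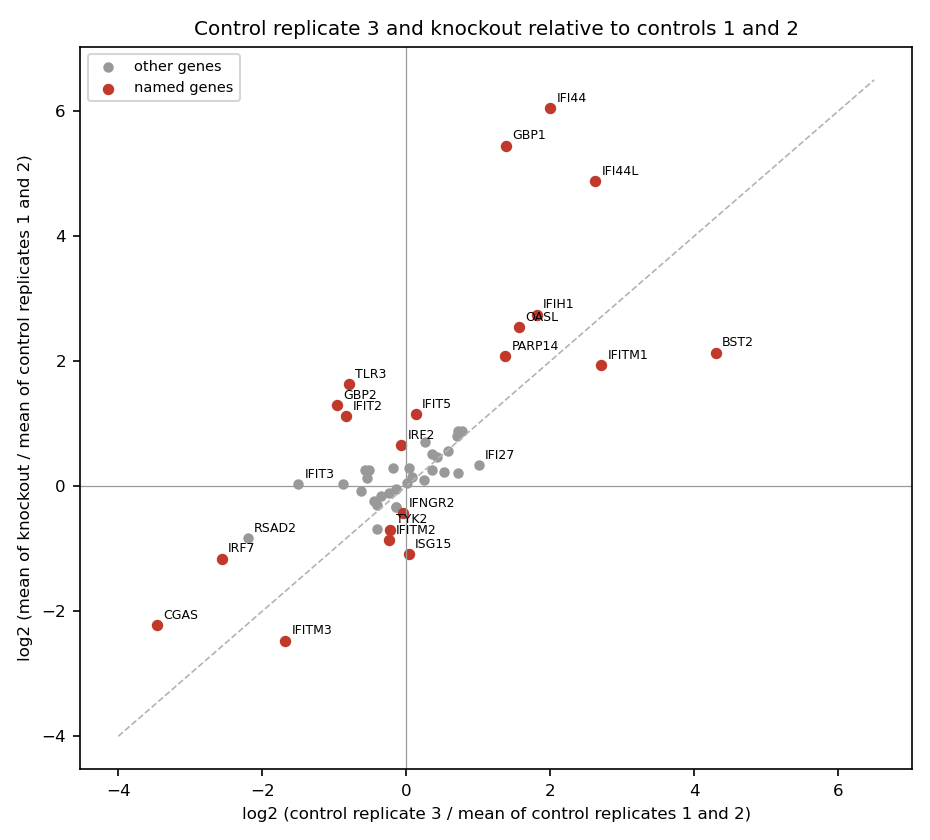
Control replicate 3 and knockout libraries relative to the mean of control replicates 1 and 2. The x axis gives the log2 ratio of control replicate 3 and the y axis that of the knockout mean, each point is 1 of the 51 tested members (red for the 20 named ones), and the dashed line marks equal ratios. IFI44 and GBP1 lie high above the line, BST2 and IFITM1 below it on the right, and CGAS and IRF7 above it on the lower left, so that control replicate 3 was farther from the other controls than the knockout libraries were in these 4 genes.

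Of the 55 members, 23 fell into 9 groups of neighbours no more than 200000 bases apart. IFI44L (chr1:78620448-78646145) and IFI44 (chr1:78649789-78664078) both rose, as did GBP1 (chr1:89052319-89065208) and GBP2 (chr1:89106132-89126114). In the IFIT cluster of chromosome 10 the outermost members, IFIT2 (chr10:89302046-89309271) and IFIT5 (chr10:89414568-89420997), rose, and IFIT3 and IFIT1 between them were not called. Within 13045 bases of chromosome 11, IFITM2 (chr11:307816-309395) and IFITM3 (chr11:319676-320860) fell, and IFITM1 (chr11:314040-315272) between them was not called. Of the receptor genes IFNAR2, IFNAR1 and IFNGR2 on chromosome 21, the last (chr21:33402882-33437516) fell. The pairs PARP9 and PARP14 on chromosome 3 and HERC6 and HERC5 on chromosome 4 held no call with all libraries, and in the OAS and MX clusters only OAS3 and MX1 were tested. Of the called members outside such groups, ISG15 lies at chr1:1013497-1014540, TLR3 at chr4:186069156-186088073, IRF2 at chr4:184387729-184474550, OASL at chr12:121017761-121039246 and TYK2 at chr19:10350533-10380572. All positions are RefSeq gene bounds on GRCh38.p14. Exons of 25 members overlap those of another annotated gene, which had a mean of at least 10 counts for 15 of them.

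A second list of 68 other genes of the pathway, namely interferons, further receptors, signalling factors and interferon-induced genes, had 50 tested genes. Of these, 4 rose and 3 fell in edgeR at an adjusted p of at most 0.05, all 7 with at least a 2-fold change, beside 16.6% of all genes called and 7.06% called at 2-fold, and the median log2 fold change was 0.20. CXCL10, a chemokine strongly induced by interferon-gamma, had 6, 4 and 5 counts in control and 227, 233 and 214 in knockout libraries, and control replicate 3 lay with the other controls (log2 fold change 5.61, SE 0.24, edgeR adjusted p = 0.00055, range 4.37e-36 to 0.0330). SAMD9L, CCL5 and LGALS3BP rose by 2.78, 2.48 and 1.75 on the log2 scale. CXCL10, SAMD9L and CCL5 passed the filter only through the knockout libraries, where they were high. IFI16, a DNA sensor, had 1092, 1096 and 93 counts against 10, 13 and 22, with control replicate 3 between the groups (log2 fold change -5.50, SE 1.01, edgeR adjusted p = 0.0193, range 1.10e-17 to 0.112). IRF4, a transcription factor of lymphoid cells, fell by 1.59 on the log2 scale. Without control replicate 3, edgeR called 35 of 51 tested genes of this list (19 higher, 16 lower), beside the 65.6% of all genes. The interferon genes IFNA1, IFNB1, IFNE, IFNK, IFNL1, IFNL2 and IFNL3 had no more than 8 counts in any library. Levels of other interferon genes are not given. IFNB1 had 0, 0 and 0 counts in control and 2, 0 and 2 in knockout libraries, IFNL1 had 1, 0 and 1 against 5, 2 and 4, and IFNA1 was at 0 throughout, which is not detectable at this depth.

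The calls differed in whether they held when single libraries were left out. GBP1, IFI44 and IFIT5 were called in every alternative in which they were tested, including each of the 6 fits that left out 1 library. GBP1 and IFI44, like IFI44L, passed the filter only through the knockout libraries, where they were high. With at least 10 counts required in every library these 3 were not tested, and 6 members were called higher in place of 9. ISG15 and TLR3 were no longer called when any 1 of the knockout libraries was left out, with adjusted p of up to 0.0799 and 0.0761 over all alternatives (edgeR, DESeq2 or limma). The other 9 called members were called without control replicate 3 but lost the call when any other single library was left out, with highest adjusted p between 0.0903 for TYK2 and 0.160 for OASL over all alternatives (edgeR, DESeq2 or limma). In numbers, 5 members were called without control replicate 1, 5 without control replicate 2 and 37 without control replicate 3. Leaving out knockout replicate 1, 2 or 3 gave 3 called members each. Calls over all genes moved as well, from 3491 with all libraries to 1049, 796 and 14221 without control replicates 1, 2 and 3. They were 167, 503 and 189 without knockout replicates 1, 2 and 3. No called member changed sign in any alternative. All 14 were also called by DESeq2.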

How the data were processed

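Per the submitters' processing notes, reads were aligned with STAR 2.7.10b and counted with featureCounts 2.0.0 on hg38, whereas the study's methods name Trimmomatic, Salmon and limma on hg38 and the extraction notes name hg19, so these sources do not settle which counting step made the table. The authors deposited whole-number counts per Ensembl gene for 6 libraries, without normalization, and every column belonged to a sample. Libraries were grouped by the treatment named in their labels, 3 control and 3 knockout.

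Knockout was compared with control in edgeR 4.0.16 (R 4.3.3) with TMM normalization, filterByExpr at a minimum count of 10 and its quasi-likelihood F-test (two-sided), adjusted by Benjamini-Hochberg over the 20992 genes tested. This test suits counts and was used in place of the study's limma. Each SE was derived as the absolute log2 fold change divided by the square root of that test's F statistic. The common dispersion was 0.0854 with 2.44 prior degrees of freedom. The script was tested on simulated data. Total counts of 88361827 to 93346824 set the precision, and 3 counts per library were taken as the floor. Levels are CPM (counts divided by the normalized library size) after TMM, and levels between genes were compared only per kb of the canonical transcript.

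The members and lists were chosen with earlier results of these data known. Counts in every library were printed for members called with all libraries. They were also printed for members called without control replicate 3 at 2-fold, and for members without overlap between groups at 2-fold. Of the others, the highest per length in each role was named, and members left out by the filter were named with their range. Other members are given by their fold change only. Of the second list, genes called at 2-fold and the interferon genes were named, except for genes that are not reported here. Alternatives were DESeq2 1.42.0, quantile-normalized limma-voom (limma 3.58.1), scaling by library size alone, testing without a filter, requiring at least 10 counts in every library, leaving out each library, and the replicate number as a block. Start-site windows came from RefSeq on GRCh38.p14, and overlapping exons from the reference annotation. Python 3.11.15 with numpy 2.4.6, scipy 1.17.1, pandas 2.3.3 and matplotlib 3.10.9 was used for tables, the exact permutation test and figures.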

Additional observations from a re-analysis of the deposited data

How the results depend on the processing

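With all libraries, 14 members were called, and DESeq2 (18), at least 10 counts in every library (11), library size without TMM (16), limma-voom (15) and no filter (14) kept this within 1.5 times. No filter gave 3 members called lower in place of 5. Leaving out 1 library gave 3 to 37 members called, 3 to 24 called higher, 0 to 13 called lower and 3 to 16 called with a 2-fold change. The highest of each came without control replicate 3. In the 5 other fits that left out 1 library, 3 to 5 members were called, beside 167 to 1049 of all genes. The median log2 fold change of the members was 0.20 with at least 10 counts in every library, 0.16 without TMM, 0.21 with limma-voom and 0.17 to 0.25 when 1 library was left out. The second list gave 7 calls with all libraries, 15 with DESeq2, 4 with at least 10 counts in every library and 1 to 35 when 1 library was left out. Over all genes, 3491 were called with all libraries, 5581 with DESeq2 and 167 to 14221 when 1 library was left out. The log2 fold change of IFITM1 ran from -0.019 without control replicate 2 to 1.90 without control replicate 3, and that of BST2 from -1.27 without control replicate 1 to 2.10 without control replicate 3, with 0.67 by limma-voom. None of the called members changed sign, and 12 of the 51 tested members did in at least 1 alternative. The cause of these differences was not tested.

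Control and knockout libraries share replicate numbers. The correlations of their deviations from the group means were 0.01, 0.03 and -0.04 for numbers 1, 2 and 3. Control replicate 3 stood apart and weighs on these deviations, so the correlations cannot tell whether libraries of the same number were handled together. Control replicate 1 correlated more with knockout replicate 3 (0.0771) than with knockout replicate 1 (0.0101), so not every library correlated best with its own number. With the replicate number as a block, 3 members were called (3 higher, 0 lower, 3 with a 2-fold change), 1 gene of the second list and 407 of all genes, with a median over members of 0.31 and BST2 at 0.90.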
